A study of Homo sapiens with 10 samples.

Results

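MGLL is the lipase that removes the last fatty acid from a glycerol backbone. Described with it are genes of enzymes that act on the same neutral lipids, on lipid messengers or on phospholipids. The 10 genes are MGLL, ABHD6 and ABHD12, FAAH, DAGLA and DAGLB, PNPLA2 and LIPE, and PLD1 and PLD2. They were chosen by function around MGLL, which was itself selected on its lower TPM in HCT116-CD276KO than in HCT116-WT libraries. A lower level of PLD1 was also among earlier results of these data. The contrast between the groups is therefore given for these genes as a description. Where the text says whether one passed in the fit across all genes, that is part of the description and not a test of the gene. All 10 genes were found among the 58050 rows of the table of TPM (transcript abundance from reads divided by transcript length and scaled to the same total in every library), and all 10 were among the 13581 genes tested, those whose mean reached 1 TPM. HCT116 is a human colorectal carcinoma line. HCT116-WT cells (5 libraries) were compared with HCT116-CD276KO cells (5 libraries), in which Cas9 had been delivered as a ribonucleoprotein with a guide against CD276, a surface protein of the B7 family. All experiments on the knockout used 1 single cell clone, so that an effect of CD276 loss and a property of that clone cannot be told apart. The editing protocol names a scrambled guide as control, but the labels do not say whether the HCT116-WT cultures had received it. Both groups were grown in the same medium with serum and without further treatment.

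Triglycerides stored in lipid droplets are broken down stepwise. PNPLA2 (adipose triglyceride lipase) removes the first fatty acid, LIPE (hormone-sensitive lipase) acts mainly on the diglyceride, and MGLL on the monoglyceride. The same reaction of MGLL inactivates the endocannabinoid 2-arachidonoylglycerol (2-AG), which DAGLA and DAGLB make from diglycerides and which ABHD6 and ABHD12 can also hydrolyse. FAAH breaks down the other main endocannabinoid, anandamide. PLD1 and PLD2 are phospholipases that release phosphatidic acid, a lipid messenger and a precursor of diglycerides, from phosphatidylcholine. Monoacylglycerol lipase is known in tumor cells for the release of free fatty acids.

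The targeted gene, CD276, ranged from 38.08 to 53.61 TPM in HCT116-WT and from 4.4 to 7.42 TPM in HCT116-CD276KO. Of the 6 epithelial markers examined, EPCAM, KRT8, KRT18, CDH1 and CDX2 were above 1 TPM on average and VIL1 was not (mean 0.022 TPM in HCT116-WT), and the sum of the list ran from 3007 to 3473 TPM in HCT116-WT and from 2320 to 2622 TPM in HCT116-CD276KO libraries. EPCAM, KRT8, KRT18 and CDH1 were past the threshold of the test below and lower, and the part of this shift in the results below was not tested. Markers of other cells were near 0, PTPRC of leukocytes at no more than 0.13 TPM and ADIPOQ of adipocytes listed at 0 in every library. The markers above 1 TPM on average were CD68 among 6 of monocytes and macrophages (list sums of 9.22 to 15.41 against 6.15 to 13.17 TPM), COL1A1 among 4 of fibroblasts (6.01 to 8.98 against 4.54 to 7.51 TPM) and CFD among 4 of adipocytes (51.32 to 83.32 against 52.17 to 81.9 TPM). In a bulk sample fewer expressing cells and less RNA per cell cannot be told apart. Long and short transcripts were not weighted alike in every library. Over genes, the Spearman correlation between the deviation of a library and transcript length ran from -0.094 to 0.43 in HCT116-WT and from -0.52 to 0.32 in HCT116-CD276KO, with the lowest values in HCT116-CD276KO replicates 2 and 3. These were also the 2 libraries with the lowest TPM of MGLL and PLD1, so both differences are given below with and without that trend. Depth is unknown, since TPM keep no read counts. Of all 13581 genes tested with limma, 4.87% passed at an adjusted p-value of 0.05, with 4.09% lower in HCT116-CD276KO and 0.781% higher, and the median log2 difference was -0.09. The split moved with the scaling, from 556 lower and 106 higher genes to 386 and 197 after median-of-ratios scaling.

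MGLL, with ABHD6 and ABHD12, makes up the group that hydrolyses 2-AG, and only MGLL of the 3 had groups that did not overlap. MGLL (ENSG00000074416) lies on the minus strand of chromosome 3 of hg38 from 127689062 to 128052190, a span of 363 kb, and its canonical transcript, with 8 exons and 4271 bases, covers the part from 127689066 to 127822515. HCT116-WT replicates 1 to 5 gave 13.4, 16.8, 22.07, 18.17 and 15.28 TPM, and HCT116-CD276KO replicates 1 to 5 gave 5, 3.18, 4.05, 8.98 and 8.9 TPM. Every HCT116-CD276KO library was below every HCT116-WT library, and within the knockout replicates 4 and 5 were higher than replicates 1 to 3. Its mean was 17.1 ± 3.28 TPM (SD, n = 5) in HCT116-WT and 6.02 ± 2.74 TPM (SD, n = 5) in HCT116-CD276KO, or 35.1% of the former. The log2 difference on log2(TPM + 1), knockout minus HCT116-WT here and below, was -1.44 (standard error 0.24), which ranked 42 from the bottom of the 13581 genes. When each library's trends with length and GC content of the transcripts were taken out it was -1.30, and the groups still did not overlap. Its coefficient of variation between libraries was 19.1% in HCT116-WT and 45.5% in HCT116-CD276KO, in both groups the largest of the 10 genes.

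ABHD6 (chromosome 3), a membrane-bound hydrolase of 2-AG and other monoglycerides, was at 7.67, 8.15, 9.15, 10.5 and 8.94 TPM in HCT116-WT and at 10.31, 8.85, 7.44, 8.18 and 9.71 TPM in HCT116-CD276KO. The ranges overlapped almost completely, with means of 8.88 ± 1.08 and 8.90 ± 1.15 TPM (SD, n = 5) and a log2 difference of 0.0013 (standard error 0.10). ABHD12 (chromosome 20), better known as a lysophosphatidylserine lipase, was at 23.46, 23.5, 24.38, 23.04 and 22.81 TPM in HCT116-WT and at 22.92, 26.95, 21.66, 23.53 and 24.3 TPM in HCT116-CD276KO. It was the steadiest of the 10 genes in both groups, with coefficients of variation of 2.56% and 8.27%, and its log2 difference was 0.02 (standard error 0.07), within overlapping groups.

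As TPM are values per transcript length, the 3 genes can be added within a library. MGLL accounted for 30.1, 34.7, 39.7, 35.1 and 32.5% of the summed TPM of MGLL, ABHD6 and ABHD12 in HCT116-WT replicates 1 to 5, and for 13.1, 8.16, 12.2, 22.1 and 20.7% in HCT116-CD276KO replicates 1 to 5. The mean share was 34.4 ± 3.57% (SD, n = 5) in HCT116-WT and 15.3 ± 5.93% (SD, n = 5) in HCT116-CD276KO, without overlap. Transcripts of ABHD12 were thus the most abundant of the 3 in either group. The sum itself was 49.5 ± 4.3 TPM (SD, n = 5) in HCT116-WT and 38.8 ± 3.63 TPM (SD, n = 5) in HCT116-CD276KO, with ranges of 44.53 to 55.6 and 33.15 to 42.91 TPM. These are shares of transcripts and not of enzyme activity.

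**Figure D1:**
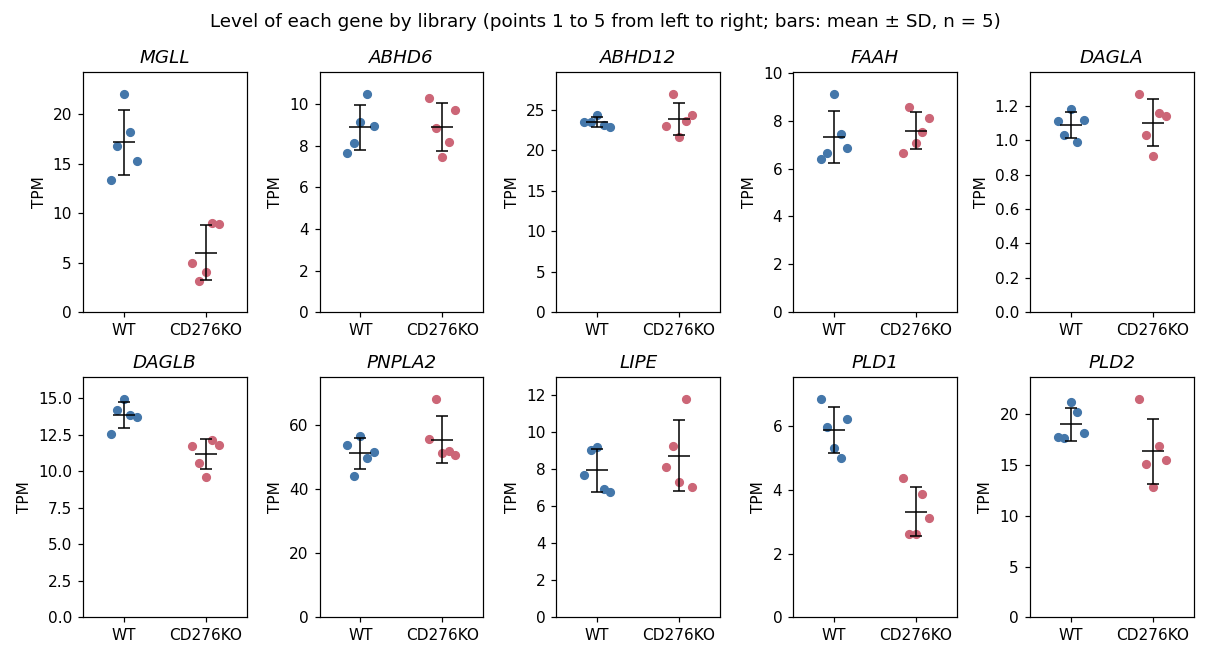
TPM (y axis, from 0, a separate scale for each gene) of the 10 genes in the 5 HCT116-WT (blue) and 5 HCT116-CD276KO (red) libraries, each point 1 library in the order of the replicate numbers, with mean and SD in black. The groups are apart for MGLL (13.4 to 22.07 against 3.18 to 8.98 TPM), PLD1 and DAGLB, and overlap for the other 7 genes.

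The enzymes that make 2-AG differed less. DAGLB (ENSG00000164535, chromosome 7, 6409126 to 6484190, minus strand) was the main diglyceride lipase transcript, at 12.56, 14.16, 14.93, 13.84 and 13.69 TPM in HCT116-WT and 11.7, 10.54, 9.63, 12.11 and 11.78 TPM in HCT116-CD276KO. All 5 knockout libraries were below all 5 HCT116-WT libraries, although the highest of the former, 12.11 TPM, came close to the lowest of the latter, 12.56 TPM. The means were 13.8 ± 0.859 and 11.2 ± 1.04 TPM (SD, n = 5), a log2 difference of -0.29 (standard error 0.08), and DAGLB did not reach an adjusted p-value under 0.05. Once the trends with length and GC content were removed its difference was -0.20, and the groups overlapped. DAGLA (chromosome 11), the enzyme that makes most 2-AG in the brain, was close to the limit of 1 TPM, with 1.11, 1.03, 1.18, 0.99 and 1.12 TPM in HCT116-WT and 1.27, 1.03, 0.91, 1.16 and 1.14 TPM in HCT116-CD276KO. The groups overlapped, with a log2 difference of 0.0093 (standard error 0.10). With the length and GC trends removed every knockout value was above every HCT116-WT value, at a log2 difference of 0.18 (standard error 0.09). DAGLA did not reach an adjusted p-value under 0.05 in that setting either, and the share of all genes so placed was not counted. With the lower DAGLB, the share of DAGLA in the summed TPM of both genes was 7.29 ± 0.592% (SD, n = 5) in HCT116-WT and 8.98 ± 0.465% (SD, n = 5) in HCT116-CD276KO, with ranges of 6.68 to 8.12% and 8.63 to 9.79%.

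FAAH (chromosome 1), the amidase that degrades anandamide, was at 6.41, 6.67, 9.13, 7.44 and 6.87 TPM in HCT116-WT and at 6.66, 8.57, 7.07, 7.52 and 8.1 TPM in HCT116-CD276KO. The knockout values lay within the HCT116-WT range, and the log2 difference was 0.05 (standard error 0.10). A neighbouring pseudogene, FAAHP1, was at 1.69 to 5.21 TPM over the 10 libraries, and how reads that fit both were divided is not known from the TPM.

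Among the lipases that act before MGLL on stored fat, neither stood apart between the groups. PNPLA2 (chromosome 11) had the highest level of the 10 genes. It was at 53.8, 43.99, 56.55, 49.48 and 51.39 TPM in HCT116-WT and at 55.37, 67.98, 51.19, 51.7 and 50.39 TPM in HCT116-CD276KO. Apart from 67.98 TPM in HCT116-CD276KO replicate 2, the knockout values lay within the range of HCT116-WT, and the log2 difference was 0.11 (standard error 0.09). LIPE (chromosome 19) was at 7.67, 9.03, 9.22, 6.96 and 6.8 TPM in HCT116-WT and at 8.15, 9.28, 7.34, 11.8 and 7.06 TPM in HCT116-CD276KO, with overlap and a log2 difference of 0.11 (standard error 0.14). The gene lies wholly inside LIPE-AS1 on hg38, which was at 3.74 to 10.8 TPM. The libraries were strand-specific, but whether the TPM were computed by strand is not stated. LIPE made up 13.5 ± 2.15% of the summed TPM of LIPE and PNPLA2 in HCT116-WT and 13.7 ± 2.77% in HCT116-CD276KO (SD, n = 5).

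Of the phospholipases D, PLD1 differed and PLD2 overlapped between the groups. PLD1 (ENSG00000075651), the form activated by ARF proteins and protein kinase C, lies on the minus strand of chromosome 3 from 171600404 to 171810950. It was at 6.86, 5.99, 5.33, 5.02 and 6.22 TPM in HCT116-WT and at 4.39, 2.61, 2.63, 3.86 and 3.13 TPM in HCT116-CD276KO, without overlap. Its mean was 5.88 ± 0.73 TPM in HCT116-WT and 3.32 ± 0.783 TPM in HCT116-CD276KO (SD, n = 5), or 56.5% of the former, a log2 difference of -0.68 (standard error 0.13). Its canonical transcript of 6015 bases is the longest of the 10, and with the length and GC trends removed the difference was -0.50, still without overlap. PLD2 (chromosome 17), the form with the higher basal activity, was at 17.8, 17.67, 21.23, 20.24 and 18.14 TPM in HCT116-WT and at 21.5, 15.1, 12.81, 16.87 and 15.46 TPM in HCT116-CD276KO. In the knockout 4 libraries were below the HCT116-WT range and replicate 1 above it, and the log2 difference was -0.22 (standard error 0.12). PLD1 made up 23.7 ± 3.56% of the summed TPM of both genes in HCT116-WT and 16.8 ± 1.38% in HCT116-CD276KO (SD, n = 5), with ranges of 19.9 to 27.8% and 14.7 to 18.6%. This share, like those of MGLL, DAGLA and LIPE, was taken without removal of the length and GC trends. The canonical transcripts of PLD1 and PLD2 differ in length, at 6015 and 3443 bases, and the part of the trend in the share was not tested.

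PLD1 also holds a predicted off-target site of the CD276 guide, 1 of the 66 that the study lists, which is why both sequences are shown. The study allowed up to 4 mismatches and reports no overlap between the genes of these sites and those it found changed in the knockout. Its gene set came from its own fit on counts, not from the fit on TPM used here. That set was much smaller than the 662 genes past the threshold here, PLD1 among them. The site is on the minus strand of hg38 at chr3:171695747-171695769, in the intron between exons 12 and 13 of the canonical transcript and 3305 bases from the nearest exon. In capitals are the mismatches and the protospacer adjacent motif at the 3′ end.
CD276 guide: ttcgtgagcatccgggatttCGG
PLD1 site: ttAgtgagcatccTggGttGGGG
Counted from 1 at the 5′ end of the guide, with the base of the guide first, the 4 mismatches are C3A, G14T, A17G and T20G, of which T20G lies next to the motif. The listed site was found at this position of the reference genome. TPM per gene do not show whether it was edited in the clone, and its part in the level of PLD1 was not tested.

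Bases before the start of the canonical PLD1 and PLD2 transcripts are shown because these paralogs differed in how far apart the groups were. The sequences are from RefSeq on GRCh38.p14, whose table matched 8 of the 10 genes, all but MGLL and DAGLA. Each run is 250 bases long and is read along the gene, with the GC box, GGGCGG on either strand, in capitals. The window of PLD1 is chr3:171810484-171810733 on the minus strand, and that of PLD2 is chr17:4806902-4807151 on the plus strand. That of PLD1 lies inside the annotated gene, which extends to 171810950.
PLD1: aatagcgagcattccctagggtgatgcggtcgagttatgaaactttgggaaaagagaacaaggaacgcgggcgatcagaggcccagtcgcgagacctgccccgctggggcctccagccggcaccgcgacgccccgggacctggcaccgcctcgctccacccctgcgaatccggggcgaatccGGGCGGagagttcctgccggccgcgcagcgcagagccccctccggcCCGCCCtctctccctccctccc
PLD2: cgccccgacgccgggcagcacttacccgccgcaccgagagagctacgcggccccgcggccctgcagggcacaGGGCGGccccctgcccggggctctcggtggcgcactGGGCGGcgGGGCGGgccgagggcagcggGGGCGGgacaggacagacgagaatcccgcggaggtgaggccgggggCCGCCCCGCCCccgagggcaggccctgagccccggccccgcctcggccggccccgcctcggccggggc
PLD1 holds 2 GC boxes and PLD2 holds 6, and 7 of the 8 matched genes hold at least 1, against 42.6% of 35116 promoters of the same length. LIPE is the exception, and it and PNPLA2 have 3 and 4 CpG dinucleotides in the window, against 22 to 35 in the other 6 genes. None of the 8 holds a TATA box (TATAAA, 10.7% of all promoters), an AP-1 site (TGACTCA, 4.2%) or an E-box (CACGTG, 6.34%), and ABHD12 and LIPE hold a CCAAT box (CCAAT, 32% of all).

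**Figure D2:**
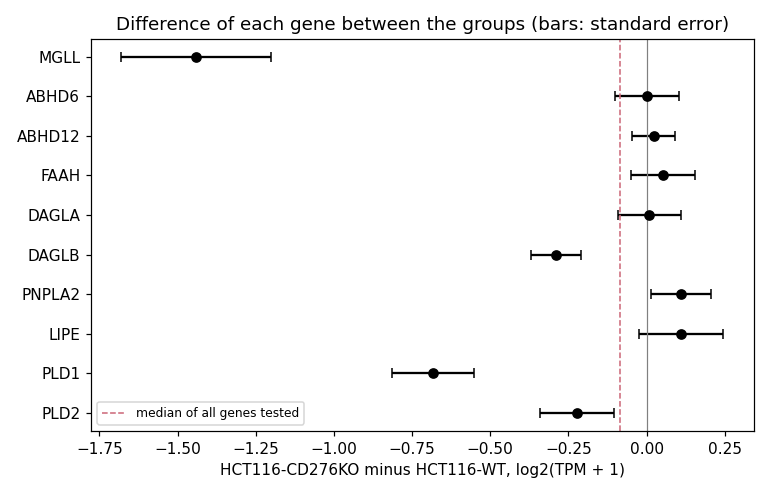
Log2 difference, HCT116-CD276KO minus HCT116-WT, on log2(TPM + 1) (x axis) for each of the 10 genes (y axis), with its standard error and, as a broken line, the median of all genes tested (-0.09). MGLL is at -1.44 and PLD1 at -0.68, DAGLB and PLD2 lie between -0.29 and -0.22, and the other 6 are between 0.0013 and 0.11.

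In the fit across all genes 2 of the 10 genes, MGLL and PLD1, had an adjusted p-value under 0.05, where 4.87% of all genes did. The HCT116-CD276KO values were all below the HCT116-WT values in 3 of the 10, where 6.19% of all genes were so placed. Nothing is read from these counts, since MGLL was chosen from this contrast and the lower level of PLD1 was known. The 8 other genes had log2 differences between -0.29 and 0.11, and the median of the 10 was 0.0053, against -0.09 for all genes tested. After median-of-ratios scaling or quantile normalization MGLL was between -1.35 and -1.32 and PLD1 between -0.60 and -0.58.

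The order of the mean levels in HCT116-WT was PNPLA2 (51.0 TPM), ABHD12 (23.4), PLD2 (19.0), MGLL (17.1), DAGLB (13.8), ABHD6 (8.88), LIPE (7.94), FAAH (7.30), PLD1 (5.88) and DAGLA (1.09). Neighbours in this order whose ranges over the 5 libraries did not overlap were PNPLA2 and ABHD12, ABHD12 and PLD2, DAGLB and ABHD6, and PLD1 and DAGLA. The level of MGLL overlapped those of PLD2 above it and DAGLB below it, and stood above 50.4% of the genes tested. In HCT116-CD276KO the order was the same but for MGLL, which moved from rank 4 to rank 8, below FAAH (7.58 TPM) and above PLD1 (3.32 TPM), and overlapped both.

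The chromosomal neighbours of MGLL were examined next. Of the 20 nearest tested genes, 10 on each side, 2 had an adjusted p-value under 0.05, where 4.87% of all genes did. The median log2 difference of the 20 was -0.07, close to that of all genes. PODXL2 (ENSG00000114631), which encodes the sialomucin endoglycan and ends 16.3 kb from the 3′ end of MGLL, was at 2.59, 2.41, 3.11, 2.75 and 2.46 TPM in HCT116-WT and at 0.01, 0, 0.02, 0.04 and 0 TPM in HCT116-CD276KO. It had the lowest log2 difference of the 20, -1.85 (standard error 0.10), a size that depends on the pseudocount because the knockout values are near 0. It reached the mean of 1 TPM needed for the test through HCT116-WT alone, so its difference is given without a p-value and its place among the 2 supports nothing. Between both genes lies ABTB1, which was at 4.48 to 5.92 TPM in HCT116-WT and 4.74 to 6.23 TPM in HCT116-CD276KO. SEC61A1, a subunit of the protein translocation channel, overlaps the 5′ end of the annotated MGLL gene by 550 bases on the other strand, beyond the canonical transcript. It was at 176.25 to 197.41 TPM and 145.75 to 188.47 TPM, a log2 difference of -0.14 (adjusted p-value 0.27). The other neighbour past the threshold was RPN1, a subunit of the oligosaccharyltransferase, which fell from 307.8 ± 10.35 to 254.7 ± 13.1 TPM (SD, n = 5), a log2 difference of -0.27 (adjusted p-value 0.0132). Around PLD1 0 of the 20 nearest tested genes passed in limma after adjustment, where 4.87% of all genes did, and their median was -0.17. Before adjustment 4 of these 20 had a limma p-value under 0.05, and the share of all genes at that level was not counted.

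**Figure D3:**
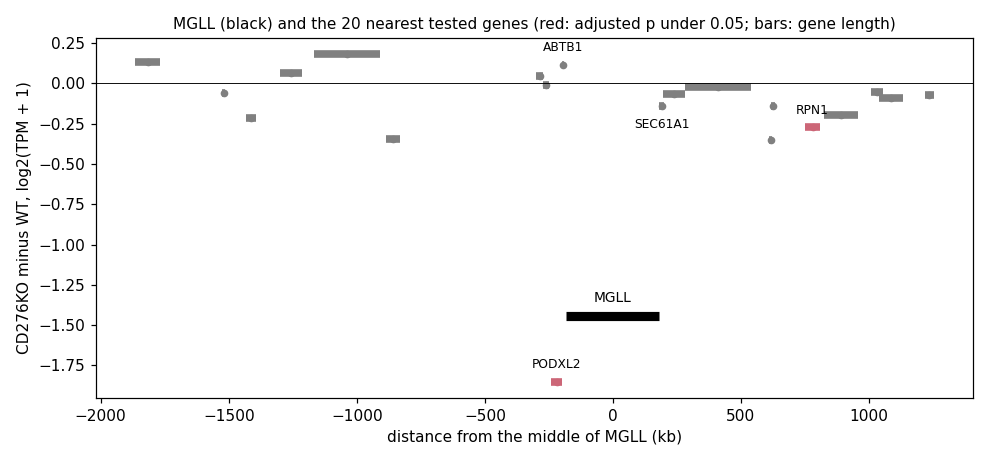
Log2 difference, HCT116-CD276KO minus HCT116-WT, on log2(TPM + 1) (y axis) of MGLL (black) and the 20 nearest tested genes against the distance from the middle of MGLL in kb (x axis). Bars span the genes, and red marks an adjusted p-value under 0.05. PODXL2, at -1.85, is the only neighbour below MGLL, and ABTB1, between them, is at 0.12.

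The genes most like MGLL were sought by the root-mean-square difference of their log2(TPM + 1) values over the 10 libraries, each gene taken relative to its HCT116-WT mean. The nearest were MACC1 (0.306), RRBP1 (0.329), KLF4 (0.331), MYO1E (0.359) and EMP1 (0.363), in log2 units. In HCT116-CD276KO replicates 1 to 5 MACC1 was at 2.59, 1.24, 1.68, 2.63 and 3.66 TPM, so that it too was lowest in replicates 2 and 3. So were RRBP1, KLF4, MYO1E and EMP1. These 2 libraries had the lowest correlations with transcript length. The measure was taken without removal of the length and GC trends, and the part of the trends in the likeness was not tested. Among the other 9 genes of the list PLD1 was nearest to MGLL, at 0.67 and rank 172 of all genes, and PNPLA2 farthest, at 1.20 and rank 11721. The groups are shared by all these comparisons, and the measure is a description.

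Genes of related steps, listed by function and not by level, were tested in the same fit. Of 100 genes in 5 lists 70 were tested. At an adjusted p-value under 0.05, 6 fell and 1 rose in HCT116-CD276KO, 10% of those tested beside 4.87% of all genes. The lists were drawn up with earlier results of these data known, so this share and the adjusted p-values below are descriptions. PLPP3, 1 of the 6, also reached the mean of 1 TPM through HCT116-WT alone. The median log2 difference of the 70 genes was -0.12, against -0.09 for all genes.

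Glyceride synthesis held the most of them, with 3 of 14 tested genes past the threshold, all lower, and a median of -0.25. GPAT2, a glycerol-3-phosphate acyltransferase, fell from 53.5 ± 4.87 to 37.9 ± 3.45 TPM (SD, n = 5), a log2 difference of -0.49 (adjusted p-value 0.00548). It has pseudogene copies, of which GPAT2P1 was at 0.14 to 1.23 TPM. GPAT3, which catalyses the same first step of triglyceride synthesis, fell from 43.9 ± 6.21 to 31.5 ± 3.3 TPM (SD, n = 5), a log2 difference of -0.46 (adjusted p-value 0.0295), with overlap of the groups. AGPAT4, an acyltransferase of the second step, fell from 6.77 ± 0.663 to 4.05 ± 0.707 TPM (SD, n = 5), a log2 difference of -0.63 (adjusted p-value 0.00662). Its difference was -0.40 with the length and GC trends removed (adjusted p-value 0.0278). The most abundant genes of the list did not pass, with log2 differences of -0.19 in AGPAT5, -0.10 in GPAT4 and 0.05 in AGPAT2. DGAT1 and DGAT2, which add the last fatty acid of a triglyceride, had differences of -0.27 and -0.32 and did not pass either. The calls of this list depended on the setting. AGPAT1, at 0.13 and not past the threshold here, passed after median-of-ratios scaling, quantile normalization and the length and GC correction. DGAT1 passed without HCT116-CD276KO replicate 2, GPAM without HCT116-CD276KO replicate 1 and LPIN1 without HCT116-WT replicate 3. The call of GPAT3 was lost without HCT116-WT replicate 1, 2 or 5 or HCT116-CD276KO replicate 2, 3 or 4, with adjusted p-values of 0.0666 to 0.0885, and without a filter on low values (0.06496).

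Fatty acid activation and oxidation held 1 gene that fell and 1 that rose among 12 tested, with a median of -0.09. ACSL5, an acyl-CoA synthetase of the intestinal epithelium that activates long-chain fatty acids, had the largest difference of the 70 genes. It was at 96.1, 88.87, 86.29, 93.9 and 97.45 TPM in HCT116-WT and at 45.58, 34.14, 35.78, 40.42 and 44.21 TPM in HCT116-CD276KO, a log2 difference of -1.20 (standard error 0.09, adjusted p-value 7.28e-06). The groups were far apart, and the call was kept with each library left out. ACSL3, the most abundant gene of the list, was at 128.8 ± 13.7 and 124.4 ± 12.5 TPM (SD, n = 5), and ACADVL and HADHA, enzymes of beta-oxidation, had log2 differences of -0.10 and -0.14, none of the 3 past the threshold. CPT1C, a form of carnitine palmitoyltransferase known from the brain, rose from 9.5 ± 1.31 to 12.9 ± 0.478 TPM (SD, n = 5), a log2 difference of 0.42 (adjusted p-value 0.0266). Its call was lost without HCT116-WT replicate 4 or HCT116-CD276KO replicate 2, 3 or 4, with adjusted p-values of 0.0544 to 0.0673, and without a filter on low values (0.0515).

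Of the genes for phosphatidic acid turnover and the regulators of phospholipase D, 1 of 18 tested passed, and it fell, with a median of -0.11. PLPP3, a phosphatase of phosphatidic and lysophosphatidic acid, fell from 1.96 ± 0.254 to 0.998 ± 0.259 TPM (SD, n = 5), a log2 difference of -0.57. Its knockout mean was under the limit of 1 TPM, which it passed through HCT116-WT alone. The difference is therefore given without a p-value, and its place as the 1 of 18 supports nothing. With a pseudocount of 0.1 TPM the difference was -0.94. Without HCT116-WT replicate 1 or 4 PLPP3 was no longer past the threshold. The most abundant genes of the list were RHOA and ARF1, small GTPases that can activate PLD1, with RHOA at 779.6 ± 28.8 and 814.4 ± 23.4 TPM and ARF1 at 496.3 ± 21.1 and 457.9 ± 39.6 TPM (SD, n = 5), and neither passed, nor did PLPP2 (log2 difference -0.07).

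The other endocannabinoid genes gave 1 of 10 tested that passed, and it fell, with a median of -0.09. The receptors were at the bottom of the table, with CNR1 listed at 0 in every library, CNR2, GPR55 and GPR119 at no more than 0.04 TPM and TRPV1 at no more than 0.69 TPM, and none was tested. GDPD1, a phosphodiesterase that can release N-acylethanolamines such as anandamide, fell from 8.68 ± 1.16 to 6.24 ± 0.692 TPM (SD, n = 5), a log2 difference of -0.42 (adjusted p-value 0.0389). Its call held in only 5 of 18 alternatives and was lost without any of HCT116-WT replicates 1, 2, 4 and 5 and HCT116-CD276KO replicates 2 to 5, with adjusted p-values of 0.0507 to 0.101. FABP5, a carrier of fatty acids and endocannabinoids in the cytosol, was at 302.1 ± 27.3 and 314.2 ± 36.7 TPM (SD, n = 5). GDE1 (log2 difference 0.05) and NAAA, an amidase of N-acylethanolamines (-0.25), did not pass.

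Of the genes for the lipid droplet coat and the control of lipolysis 0 of 16 tested passed in limma after adjustment, with a median of -0.12. Before adjustment 4 of the 16 had a limma p-value under 0.05, and the share of all genes at that level was not counted. PLIN3, the most abundant coat protein transcript, was at 286 ± 26.5 and 245 ± 29.5 TPM (SD, n = 5), a log2 difference of -0.23, and PNPLA6 and AUP1 had differences of 0.09 and -0.15. ABHD5, the coactivator of PNPLA2, had means of 18.9 and 16.6 TPM, and the PNPLA2 inhibitor HILPDA means of 17.5 and 17.7 TPM. The other inhibitor G0S2 and the adipocyte coat protein PLIN1 had means under 0.1 TPM in both groups.

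**Figure D4:**
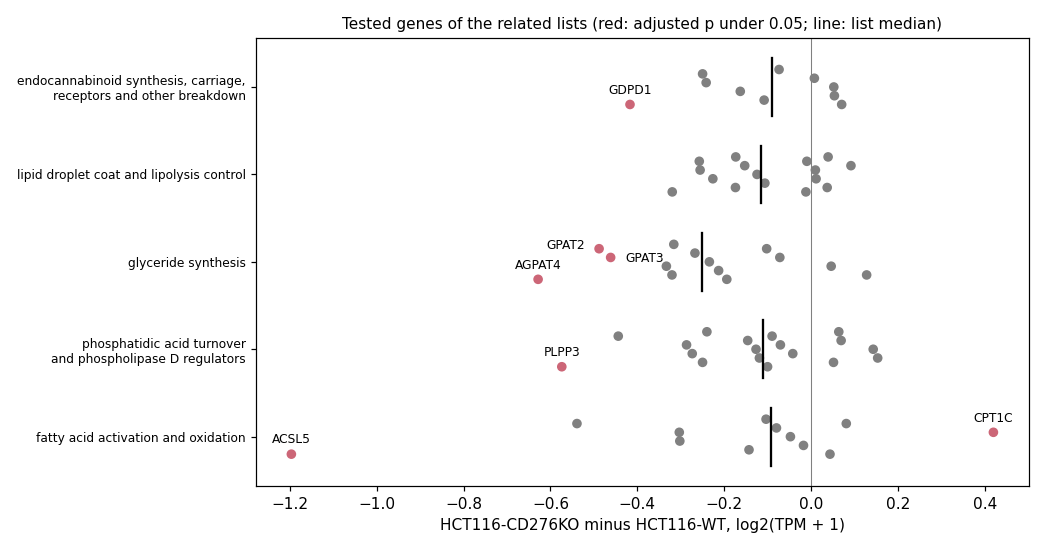
Log2 difference, HCT116-CD276KO minus HCT116-WT, on log2(TPM + 1) (x axis) of the 70 tested genes in 5 lists of related steps (y axis), each point 1 gene, with the list median as a black line. The 7 genes with an adjusted p-value under 0.05 are red, with ACSL5 (-1.20) farthest to the left and CPT1C (0.42) farthest to the right.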

How the data were processed

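RNA of HCT116-WT and HCT116-CD276KO cells, grown in separate flasks, was sequenced in 5 strand-specific libraries per group. The authors aligned reads with STAR 2.5.2b to hg38 and quantified genes with RSEM 1.3.0 and featureCounts 1.5.1, and which of these gave the deposited TPM is not stated. TPM relate all genes to 1 total, so that a change in abundant transcripts shifts the others, and they hold no depth. limma 3.58.1 (R 4.3.3, trend = TRUE) was fitted on log2(TPM + 1) over 13581 genes (mean TPM of 1 or more), with Benjamini-Hochberg adjustment over all of them and a threshold of 0.05. It was tested on simulated data in which each gene varied independently. These lacked the length and GC trends of the real libraries, so the test does not cover those trends. The fold changes of low genes are understated on this scale. The authors used limma on counts, which were not used here. Coordinates and transcript lengths are from GENCODE on hg38.

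The genes and lists were chosen with earlier results of these data known. Named were the 10 genes, CD276, of each related list the genes past the threshold and the 3 of highest mean TPM, and the 5 genes most like MGLL. The neighbours of MGLL, the pseudogenes and LIPE-AS1, the receptors, DGAT1, DGAT2, ABHD5, HILPDA, G0S2 and PLIN1 stand outside this rule. So do AGPAT1, GPAM and LPIN1. All of these were named after their values were seen. The alternatives were a pseudocount of 0.1 TPM, no filter or a mean of at least 5 TPM, 2 scalings, a loess correction (span 0.3) for transcript length and GC content, the replicate number as a block, and each library left out in turn.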

Additional observations from a re-analysis of the deposited data

Results flagged for a closer look

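In 6 of 66 groups of 5 libraries, over 33 genes, 1 library stood apart by its gap to the nearest value as a share of the whole range of the group. Chance puts about 1 in 20 independent groups past this limit, but the groups here share the same 10 libraries. The part of the trend with transcript length in these values was not tested. Among the 10 lipid hydrolase genes it was PNPLA2, at 67.98 TPM in HCT116-CD276KO replicate 2 against 50.39 to 55.37 TPM in the other 4 libraries (share of the range 0.717). Among the related genes, FABP5 was high in HCT116-WT replicate 4 at 350.4 TPM against 284.03 to 294.59 TPM (0.841), and RHOA in HCT116-CD276KO replicate 2 at 855.75 TPM against 798.35 to 808.23 TPM (0.828). HCT116-WT replicate 3 was high for GPAT2, at 62.2 TPM against 50.66 to 51.95 TPM (0.888), and for AGPAT2, at 61.34 TPM against 51.49 to 52.99 TPM (0.848). It was low for ACSL3, at 104.71 TPM against 131.6 to 138.45 TPM (0.797).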

How the results depend on the processing

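The difference of MGLL ran from -1.59 to -1.28 (log2) over 18 alternatives and that of PLD1 from -0.83 to -0.50 over the 17 that included it, as descriptions. At a mean of at least 5 TPM PLD1 was below the limit, which left 1 of the 10 genes called. Related genes called, 7 as reported, were 4 without a filter on low values, 11 with the length and GC correction and 4 to 10 with a library left out. Over all genes, 662 calls became 1287 with the length and GC correction (757 lower, 530 higher), and 343 to 857 with a library left out. They were 345, 376, 421 and 343 without HCT116-WT replicate 1, 2, 4 or 5, and 407 and 375 without HCT116-CD276KO replicate 3 or 4. Quantile normalization gave 385 lower and 253 higher. The scalings and the correction moved the median of all genes from -0.09 to between 0.0025 and 0.0073. With the replicate block 378 of all genes and 4 related genes were called, and 4 related genes with the block and the correction. The block ended the calls of PLPP3, CPT1C (adjusted p-value 0.0716) and GDPD1 (0.0932). The block with the correction ended those of PLPP3, AGPAT4 (0.0719) and GDPD1 (0.1104). The deviations of same-numbered libraries had correlations of -0.181 to 0.119, 1 of 5 over 0.1, so the numbers were not taken to pair the libraries. Of 573 values of single genes under alternatives 542 kept their side of the threshold, 31 lost it and 0 changed sign after a call. Only genes past the threshold could lose it, and the 573 include genes that never passed, so these counts do not measure how stable the calls were. All losses were in related genes. GDPD1 passed in 5 of 18 alternatives, GPAT3 in 11 of 18, CPT1C in 12 of 18, PLPP3 in 13 of 17 and AGPAT4 in 17 of 18. The cause was not tested. TPM give no depth, so low values such as those of DAGLA carry no counting error here.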

Other observations

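The chromosomal surroundings of the other genes were examined as for MGLL, each with the 20 nearest tested genes. In limma 4.87% of all genes passed at an adjusted p-value of 0.05. Of the neighbours, 2 passed around ABHD6 and around PLD2, 1 around FAAH, DAGLB and PNPLA2, and 0 around ABHD12, DAGLA and LIPE. Around ABHD12, DAGLA and LIPE 3, 5 and 2 passed before adjustment, and the share of all genes at that level was not counted. Nothing is read from these counts. The median log2 differences of the neighbours, HCT116-CD276KO minus HCT116-WT, ran from -0.18 around ABHD6 to 0.04 around LIPE.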
